A study of Mus musculus with 34 samples.

Results

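Unirradiated back skin of Krt17 knockout mice was compared with unirradiated back skin of wild-type mice. The comparison used 4 of the 34 samples of the study, 2 per genotype. Of 47633 genes listed, 13867 were compared, namely those with at least 1 FPKM in either group. FPKM, fragments per length of transcript and per mapped fragments, is a level corrected for transcript length and library size. At the 2-fold threshold used here, 140 genes were higher in the knockout (1.01% of those compared) and 104 were lower (0.75%). Krt17 had the largest difference of all compared genes that carry more than a model number as their name.

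The study sequenced RNA from skin of mice aged 8 to 10 weeks, in 17 groups of 2 samples. Its 18 back-skin samples, taken while hair was growing, were from wild-type, Krt17 knockout and p53 knockout mice that were untreated (0 h) or had been irradiated 6 h or 24 h earlier. The 16 footpad samples covered the wild-type and Krt17 knockout genotypes at points named T0, T3, T6 and T9. The dose was 5 Gy for back skin and 40 Gy for the footpads at T3, T6 and T9, while T0 footpads were untreated. Neither group compared here was irradiated. The labels give no strain, sex, Krt17 allele or breeding scheme, so whether the wild-type mice were littermates is not known. They also do not say whether the samples of a group came from separate animals. The deposited values are 1 mean per group, so no difference below has a replicate check, an error or a p-value, and all are sizes only.

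Keratin 17 is a type I keratin, an intermediate filament protein that pairs with type II keratins such as keratin 6 to form the cytoskeleton of epithelial cells. It is made in the hair follicle and in skin glands, and the epidermis between follicles switches it on after wounding or in inflammation. In mice, loss of Krt17 has been linked to a hair defect whose severity depends on the strain, and the protein has been tied to growth, inflammatory signalling and hair cycle timing.

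Differences are given as log2 ratios of (mean FPKM + 1), knockout against wild type, so that 1 is 2-fold. Most genes differed little. The median log2 ratio was -0.08, the quartiles were -0.26 and 0.09, and 91.3% of genes lay within 0.5 of 0. Column totals were 907020 FPKM in the knockout and 854202 in wild type. The wild-type total was the lowest of the 9 back-skin groups, and the highest was 1095024. Both groups expressed the Y-linked gene Ddx3y (9.85 FPKM in the knockout and 15.2 in wild type), while Xist, the RNA of the inactive X chromosome, stood at 0.05 and 0.13 FPKM. Epidermal, follicular and glandular markers were present in both groups, as the levels below show.

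Krt17 checked the genotype labels. It stood at 1650.3 FPKM in wild type and 18.9 FPKM in the knockout before irradiation, 87.2-fold lower (log2 ratio -6.37). After irradiation, wild-type back skin had 1358 FPKM at 6 h and 1919 at 24 h, against 14.7 and 29.9 in the knockout (log2 ratios -6.44 and -5.96). The 6 back-skin groups thus fell into separate ranges by genotype. Unirradiated p53 knockout skin had 1475 FPKM. In the footpad the wild-type means were 124, 92.6, 183 and 835 FPKM from T0 to T9, and the knockout means were 18.2, 26.2, 68.1 and 58.8. The footpad ratios were smaller in size, between -3.80 and -1.41. Wild-type Krt17 was lower there than in back skin, and the knockout means at T6 and T9 were above those of knockout back skin. The reason for the smaller ratios was not tested.

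The Krt17 value in the knockout was not 0. Its position is chromosome 11, bases 100256217 to 100261029 (minus strand, GRCm38), next to other type I keratins with similar sequence. Here and below, the 50-base stretches of a gene are those of its longest annotated transcript. Of the stretches of Krt17, 3.99% also occur in transcripts of other genes, 3.66% in Krt14 and 0.40% in Krt16. Krt14 stood at 2140 FPKM in the knockout, so the sequence they share is printed here. The longest identical coding stretch of Krt17 and Krt14 covers 71 bases (bases 1105 to 1175 of the Krt17 coding sequence), and the 55 bases in capitals are also in Krt16. The longest stretch shared with Krt42, a keratin gene below 1 FPKM in both groups, is given for comparison and covers 53 bases (bases 535 to 587). All are from the GENCODE mouse annotation on chromosome 11.
Krt17 with Krt14 and Krt16: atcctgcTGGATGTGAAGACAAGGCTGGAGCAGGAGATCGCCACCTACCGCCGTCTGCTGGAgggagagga
Krt17 with Krt42: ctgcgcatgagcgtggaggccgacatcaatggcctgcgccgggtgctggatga
How the authors assigned fragments from such stretches is not given in the sources used here. The share of the 18.9 FPKM that could come from them was not tested.

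Most of the other keratins lay within 0.5 of 0, though a smaller share than among all genes. Of 41 other keratin genes compared, 33 lay in that range, against 91.3% of all genes. At least 2-fold higher was 1 and lower was 1, against 1.01% and 0.75% of all genes. The median log2 ratio of these 41 keratins was 0.08, and that of all genes was -0.08. Among the 26 at 100 FPKM or more in either group, none passed 2-fold, against 1.76% of all genes. Their log2 ratios ran from -0.69 for Krt1 to 0.46 for Krt33a. Krt14, the basal layer type I keratin, stood at 2025 FPKM in wild type and 2140 in the knockout. Its type II partner Krt5 stood at 1564 and 1426. Krt1 and Krt10, the pair of the differentiating epidermis, were 425 and 1229 FPKM in wild type and 262 and 900.1 in the knockout.

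Keratins of the hair follicle stood close in both groups. Krt71, a type II keratin of the inner root sheath, was the most abundant keratin at 4989 FPKM in wild type and 5558 in the knockout. Its type I partners Krt25 and Krt27 stood at 3123 and 3019 in wild type and 3767 and 3643 in the knockout. The inner root sheath list of 15 genes had a median of 0.12. The 9 type I and 5 type II hair shaft keratins had medians of 0.04 and -0.04, whose signs turn when the columns are rescaled. Of 56 keratin-associated protein genes, which encode the matrix of the hair shaft, none passed 2-fold, against 1.76% of all genes. Their median was 0.07. Genes with a Krtap symbol held 13.1% of the FPKM total in wild type and 14% in the knockout.

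Keratins that share cells or functions with Krt17 did not behave alike. Krt16, a type I keratin of wounded epidermis and its neighbour on the chromosome, stood at 49.9 FPKM in wild type and 78.6 in the knockout (log2 ratio 0.64), but at 0.08 and 0.06 in the 6 h and 24 h pairs. Krt6a, its type II partner, stood at 183 and 169 FPKM. Krt6b, a second type II partner, stood at 10.0 and 3.89 FPKM (log2 ratio -1.17), with -1.49 and -1.86 in the irradiated pairs. Its footpad ratios were mixed in sign, at 0.17, -0.67, 3.01 and -1.98 from T0 to T9. Of the Krt6b 50-base stretches, 44.5% are also in Krt6a. Of those of Krt16, 37.6% are also in other genes, 25.2% in Gm11597 and 12.4% in Krt14. The Krt6b and Krt16 values are therefore uncertain. Krt2, a keratin of the upper epidermis, was the keratin that passed 2-fold upward, from 6.32 FPKM in wild type to 15.98 in the knockout (log2 ratios 1.21, 0.33 and 1.73 at 0, 6 and 24 h).

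**Figure D1:**
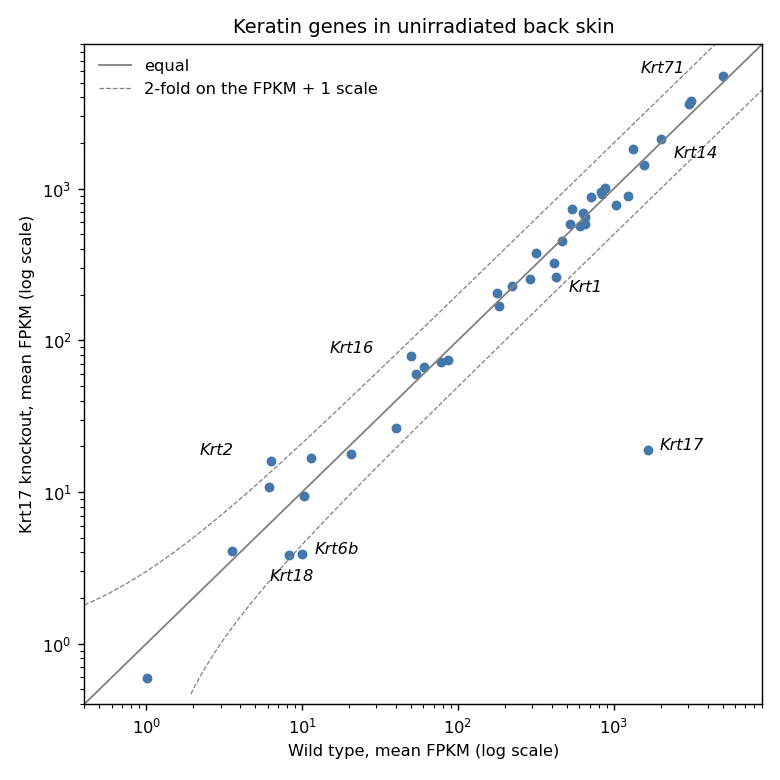
Mean FPKM of 42 keratin genes in unirradiated wild-type (horizontal axis, log scale) and Krt17 knockout back skin (vertical axis, log scale), with lines of equal level and of 2-fold difference on the FPKM + 1 scale. Krt17 stands apart at 1650.3 against 18.9 FPKM, Krt2 and Krt6b lie just beyond the 2-fold lines, and the 26 other keratins at 100 FPKM or more stay between them.

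The pairs of irradiated groups at 6 h and 24 h share no sample with the unirradiated pair. They compare the same genotypes after 5 Gy. A difference between genotypes and a difference in their response to irradiation cannot be told apart in them. At 6 h, 199 genes were at least 2-fold higher in the knockout (1.45% of 13693) and 125 lower (0.913%). At 24 h the counts were 170 higher (1.24% of 13765) and 161 lower (1.17%). Of the 140 genes higher before irradiation, 24 were also higher at 6 h (17.1% of the first list and 12.1% of the second) and 23 at 24 h (16.4% and 13.5%). Of the 104 lower genes, 17 were also lower at 6 h (16.3% and 13.6%) and 25 at 24 h (24% and 15.5%). Calls in the opposite direction numbered between 3 and 5 for each of these lists. In all 3 pairs, 21 genes passed 2-fold the same way, 11 higher and 10 lower. With a lower threshold of 0.5 on the log2 scale in every pair, 61 genes (0.44%) went the same way, 30 higher (0.216%) and 31 lower (0.224%). Lines of Flg, each counted as a gene, are among both the higher and the lower of these. The Flg line on chromosome 3 is also among the 11 higher genes past 2-fold in all 3 pairs. The 61 include a few genes with large differences.

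Wfdc18 encodes a secreted protein with the WAP domain found in several protease inhibitors. It lies on chromosome 11 from 83709015 to 83711348 on the plus strand. It stood at 28.2, 28.8 and 34.3 FPKM in wild-type back skin at 0, 6 and 24 h, and at 320.2, 230.2 and 486 FPKM in the knockout. Every wild-type mean was below every knockout mean, and the difference before irradiation was 11.3-fold (log2 ratio 3.46). Unirradiated p53 knockout skin, set against the same wild-type group, had 301 FPKM. Irradiated p53 knockout skin had 191 FPKM at 6 h and 140 at 24 h. In the footpad the picture was different: wild type had 759, 719, 858 and 548 FPKM and the knockout 593, 721, 636 and 224. None of the 50-base stretches of Wfdc18 occur in another gene. The other 8 WAP genes compared all lay between -0.40 and 0.92, so Wfdc18 was the member of that list past 2-fold. Its promoter is shown because it is the protein-coding gene with the largest increase: the window runs from 250 bases before to 50 bases after the RefSeq start site (GRCm38.p6, chr11:83708754-83709053, plus strand). Capitals mark the TATAAA motif that a search of both strands found 31 bases before the start.
Wfdc18 promoter: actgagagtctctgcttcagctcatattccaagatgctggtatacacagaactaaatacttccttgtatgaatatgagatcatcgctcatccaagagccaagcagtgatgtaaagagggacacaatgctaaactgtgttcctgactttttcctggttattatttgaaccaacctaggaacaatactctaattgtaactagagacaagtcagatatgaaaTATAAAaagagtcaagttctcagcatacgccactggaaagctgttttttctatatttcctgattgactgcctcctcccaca
The motif occurs on either strand in 13.6% of 32851 RefSeq windows of the same length, and in forward orientation in 8.32%.

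AA465934 is annotated as a processed transcript without a protein, on chromosome 11 from 83291699 to 83294632 on the plus strand. It stood at 5.82, 5.16 and 6.22 FPKM in wild-type back skin and at 118, 94.8 and 113 in the knockout, and the difference before irradiation was 20.3-fold (log2 ratio 4.13). The same contrast was present in the footpad, with wild-type means from 6.90 to 10.7 FPKM and knockout means from 139 to 232. Unirradiated p53 knockout skin had 144 FPKM, and irradiated p53 knockout skin had 116 at 6 h and 106 at 24 h. No other gene of the annotation shares a 50-base stretch with the longest AA465934 transcript.

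Awat1 encodes an enzyme of wax ester synthesis in sebaceous glands. It lies on the X chromosome from 100572251 to 100578205. It stood at 20.8, 32.0 and 30.2 FPKM in wild-type back skin and at 57.7, 107 and 102 in the knockout (log2 ratios 1.43, 1.71 and 1.72). In the footpad it stood at 26.7, 22, 6.11 and 5.62 FPKM in wild type, and in the knockout at 85.0, 78.7, 10.1 and 17.9, higher at each point. Unirradiated p53 knockout skin had 35 FPKM. Its neighbour Pdzd11, which was picked out after its values were seen, had log2 ratios of 0.79, 1.36 and 1.28.

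Mid1, an X-linked ubiquitin ligase that binds microtubules, stood at 7.79 FPKM in wild type and 18.6 in the knockout (log2 ratios 1.15, 2.21 and 1.56 at 0, 6 and 24 h). Unirradiated p53 knockout skin had 68 FPKM. In the footpad its log2 ratios were 0.91, 1.23, 2.69 and 2.68. Of its 50-base stretches 25.4% also occur in the pseudogene Mid1-ps1, so its value is uncertain.

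Sln encodes sarcolipin, a small regulator of the calcium pump of muscle. It stood at 55.6, 46.7 and 80.4 FPKM in wild-type back skin and at 14.9, 9.06 and 18.9 in the knockout (log2 ratios -1.83, -2.25 and -2.03). Each knockout mean was below each wild-type mean. Unirradiated p53 knockout skin had 31.3 FPKM. In the footpad the 4 ratios lay between 0.15 and 0.36, at levels of 2.88 to 12.6 FPKM.

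Other genes of this kind stood at lower levels or are uncertain. Mpo, the myeloperoxidase of neutrophil granules, stood at 0.09, 0.05 and 0.19 FPKM in wild type and 2.05, 2.94 and 3.36 in the knockout. The other 5 neutrophil genes compared lay between -0.48 and 0.56 before irradiation. Mup7, a major urinary protein gene of a family with near-identical copies, stood at 3.40 and 11.6 FPKM. The uncharacterised gene 4833420G17Rik on chromosome 13 stood at 14.2 and 4.64 FPKM (log2 ratios -1.43, -1.13 and -1.11), and its footpad ratios were between -1.39 and -0.79. Its neighbour Gm7120 stood at 1.96 and 0.80 FPKM, whereas Nim1k, a kinase gene close by, stood at 2.26 and 6.03. Nnt, a mitochondrial transhydrogenase gene that carries a deletion in the C57BL/6J strain, is also on chromosome 13 (119335448 to 119408997, minus strand). It stood at 2.21 FPKM in wild type and 4.12 in the knockout, with log2 ratios of 0.67, 0.42 and 0.64 in back skin and of 0.18 to 0.43 in the footpad. Gm7120, Nim1k and Nnt were picked out after their values were seen.

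The gene BC100530 on chromosome 16 stood at 145 FPKM in wild type and 65.1 in the knockout (log2 ratios -1.15, -1.24 and -1.16). Gene 2610528A11Rik, whose human counterpart encodes a ligand of the receptor GPR15, stood at 6.96 and 2.58 FPKM (log2 ratios -1.15, -1.38 and -1.74). Both were higher in unirradiated p53 knockout skin, at 283 and 19.3 FPKM. In the footpad their ratios were mixed in sign. From T0 to T9 they were 0.97, -0.53, 2.91 and -0.86 for BC100530, and -0.15, -0.55, 2.91 and -1.11 for 2610528A11Rik. Gm16867 and the RNA gene Mir142hg stood at 4.01 and 6.01 FPKM in wild type and were listed at 0 in the knockout.

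Some of the largest ratios belong to genes whose sequence is shared with others. Gm11937, a gene model among the keratin-associated genes of chromosome 11, stood at 532, 522 and 980 FPKM in wild type, and in the knockout at 1.89, 3.58 and 5.59 (log2 ratio -7.53 before irradiation). It lies 0.65 Mb from Krt17, and 85.6% of its 50-base stretches also occur in other genes. The genes that share most with it differed from it: Gm11562 stood at 964 and 524 FPKM, and Krtap2-4 at 573 and 930. Its value is therefore uncertain. Gm28438, whose 50-base stretches are 99% shared with the mitochondrial gene mt-Nd3, is uncertain as well. Flg, which encodes filaggrin of the cornified layer, is listed on 7 lines. The line with a position in the annotation (chromosome 3) stood at 13.8 FPKM in wild type and 76.5 in the knockout, while the other 5 lines compared were lower in the knockout. Their sum with it was 66.7 FPKM in wild type and 98.7 in the knockout, so the value of each line is uncertain.

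**Figure D2:**
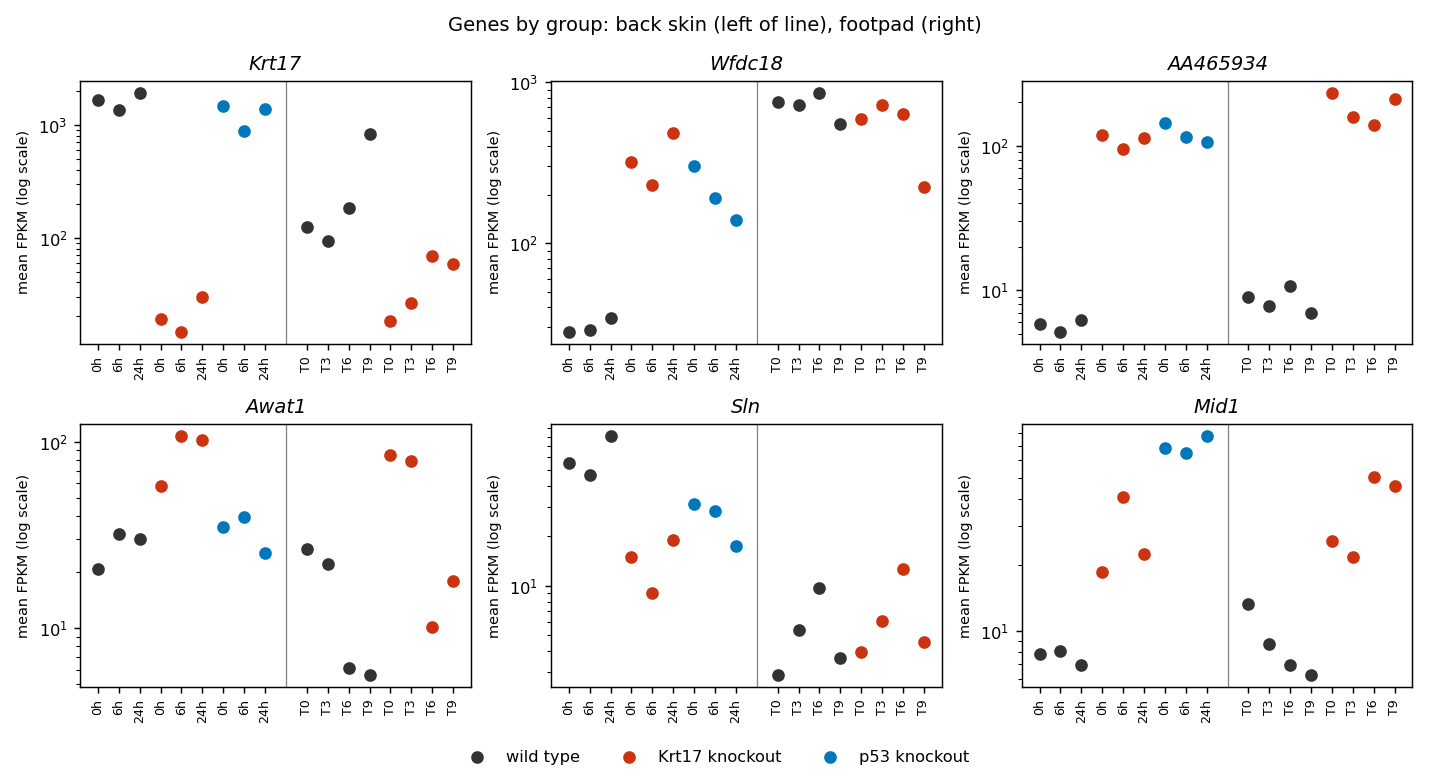
Mean FPKM (log scale) of 6 genes in each of the 17 groups, back skin to the left of the line and footpad to the right, with 1 point per group coloured by genotype. Krt17 and Sln are lower and Wfdc18, AA465934, Awat1 and Mid1 higher in the Krt17 knockout than in wild type at 0, 6 and 24 h in back skin, while in the footpad Wfdc18 and Sln do not show the back-skin difference. In back skin Wfdc18, AA465934 and Mid1 are also higher in the p53 knockout than in wild type at each time.

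Several of these genes lie on the chromosome of Krt17. On chromosome 11, 36 of 1228 genes compared passed 2-fold (2.93%), 20 of them higher and 16 lower, against 1.62% on the other chromosomes. Over all genes compared the share was 1.76%. Of the genes that went the same way beyond 0.5 in all 3 back-skin pairs, 15 were on chromosome 11, Krt17 among them (1.22% of its genes), against 41 of 12603 elsewhere (0.325%). The next highest shares were on chromosomes 14 (0.862%), 13 (0.839%), 3 (0.821%) and X (0.758%), with 3 to 6 genes each. Within 20 Mb of Krt17 there were 14 such genes among 560 (2.5%), and further away on the chromosome 1 among 668 (0.15%), Myh1. The 20 Mb window was chosen after the values were seen. Of 47 other genes within 500 kb of Krt17, the gene models Gm11569 and Gm11554 passed 2-fold, 1 higher and 1 lower. The share on the whole chromosome was 2.93%, and so small a count does not set this window apart in either direction. The median of the 47 genes was -0.14. The highest of these, AA465934 and Wfdc18, were also higher in unirradiated p53 knockout than in wild-type skin, with log2 ratios of 4.41 and 3.37. Others of the 15 were not, such as BC018473 (0.03) and Gm11569 (-1.50). The p53 gene, Trp53, is on chromosome 11 as well. The strains of the mice are not known, so an effect of Krt17 loss and of other alleles that differ between the mice, on chromosome 11 or elsewhere, cannot be told apart.

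The footpad gives a further reading of the same 61 genes. In all 4 footpad pairs, 12 had the same sign with a log2 ratio of at least 0.5 in size, 4 of them on chromosome 11, and Krt17 is 1 of those 4. That is 19.7% of the 61, against 0.368% of all genes compared, most of which had no such difference in back skin to begin with. A further 8 had the same sign in all 4 pairs (13.1%, against 9.22%), again 4 of them on chromosome 11. Another 3 had the opposite sign in all 4 (4.92%, against 6.93%), and 38 were mixed (62.3%, against 83.5%). The mixed ones include every Flg line among the 61. Syngr2, a vesicle membrane protein gene on chromosome 11 (picked out after its values were seen), had log2 ratios of -0.52, -0.76 and -0.70 in back skin and of -0.88 to -0.65 in the footpad. Rdm1, a gene with a role in DNA repair 1.37 Mb from Krt17, had -0.68, -0.86 and -0.75 in back skin and -1.03 to -0.27 in the footpad.

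**Figure D3:**
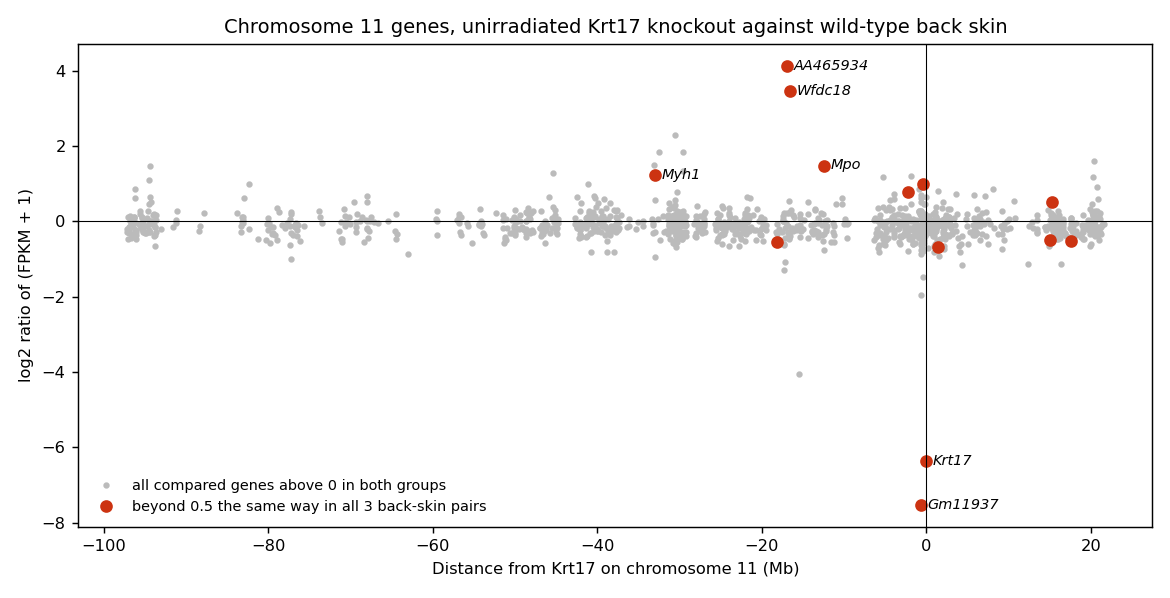
Log2 ratio of (FPKM + 1) between unirradiated Krt17 knockout and wild-type back skin for chromosome 11 genes above 0 FPKM in both groups, by distance from Krt17 in Mb. Larger points mark genes that went the same way beyond 0.5 in all 3 back-skin pairs; all of them except Myh1 lie within 20 Mb of Krt17, with AA465934 at 4.13 and Wfdc18 at 3.46 highest and Krt17 and Gm11937 lowest.

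Many of the 2-fold differences belonged to 1 column. The unirradiated wild-type group was the lowest of the 9 back-skin groups for 70 of the 140 higher genes against 5.42% of all genes compared. It was the highest group for 45 of the 104 lower genes (43.3%), against 16.9% of all genes. The knockout group was the highest for 38 of the higher genes (27.1%, against 6.22%) and the lowest for 25 of the lower genes (24%, against 5.16%). A gene chosen for a difference between both columns is more likely to be extreme in one of them, so these shares are a description. Of the higher genes 43, and of the lower genes 55, are gene models named only by a number, and 21 and 35 were listed at 0 in the other group. At 5 FPKM or more in either group there were 94 higher and 53 lower genes.

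Genes with irregular values among the largest ratios include Senp3, which encodes a SUMO protease, at 44.9 FPKM in wild type and 225 in the knockout, with ratios of -0.10 and 0.09 in the irradiated pairs. Mrm1, a mitochondrial RNA methyltransferase gene, stood at 127 and 6.65 FPKM, and Il17rc, a receptor subunit for interleukin 17, at 109 and 36.0. Their irradiated pairs lay between -0.34 and 0.28. Ece1, which encodes endothelin-converting enzyme, stood at 80.7 and 291 FPKM but had a ratio of -5.02 at 24 h. Snhg9 and Nhej1 were listed at 0 in the knockout.

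Skeletal muscle genes formed the list with the largest difference. Of 26 compared, 11 were at least 2-fold higher in the knockout, against 1.01% of all genes, and none were lower, against 0.75%. The median log2 ratio of the list was 0.93, against -0.08 for all genes. Tnnc2, the fast troponin C, stood at 575 FPKM in wild type and 1435 in the knockout, and Tnni2, the fast troponin I, at 316 and 803. Eno3, the muscle enolase, stood at 122 and 312 FPKM, and Myh2, a fast myosin heavy chain, at 3.75 and 12.4. Of the 5 defining muscle markers, Ckm (346 and 722 FPKM) and Tnnt3 (407 and 921) passed 2-fold, Acta1 (851 and 1444) and Mb (140 and 210.3) did not, and Myh4 stood at 39.4 and 32.4. Skeletal muscle lies below the skin as a thin sheet, the panniculus carnosus. In bulk samples, more cells of a type and more RNA per cell cannot be told apart.

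The muscle difference went with a low level in the unirradiated wild-type group. The list summed to 4542 FPKM there and to 9096 in the knockout, while the other 7 back-skin groups summed to between 6867 and 11693. Wild type at 0 h was the lowest of the 9 groups for 16 of the 26 genes. In the irradiated pairs the medians were 0.09 at 6 h and 0.45 at 24 h, and in the footpad they were 0.77 at T0, 1.60 at T3, 0.65 at T6 and 1.19 at T9. Muscle genes outside the list lay on both sides. Among the largest increases, Cox6a2, the heart and muscle form of a cytochrome oxidase subunit, stood at 47.4 and 136 FPKM, Ckmt2, the muscle mitochondrial creatine kinase, at 11.4 and 36.5, and Fbp2, the muscle fructose bisphosphatase, at 2.85 and 11.2. Mettl21c, a muscle methyltransferase gene, stood at 0.68 and 6.68. Sln stood lower in the knockout, and so did Ankrd1, which encodes an ankyrin repeat protein of heart and skeletal muscle, at 9.25 and 0.86 FPKM (log2 ratios -2.46, -0.999 and -1.88 at 0, 6 and 24 h). Also past 2-fold downward were Myl4, a myosin light chain gene, at 6.97 and 2.60 FPKM, and Mybph, a myosin-binding protein gene, at 4.91 and 0.89, both picked out after their values were seen. The part of muscle content in the values of Sln and Myh1 was not tested.

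Collagen and matrix genes lay on the other side of 0, without passing 2-fold. Of 30 compared, none passed, against 1.76% of all genes, and 27 were below 0, with a median of -0.40. Of all genes compared 62.9% were below 0, so counts are also given against the all-gene median, below which 25 of the 30 lay. Eln, which encodes elastin, stood at 28.4 FPKM in wild type and 15.4 in the knockout (log2 ratio -0.84), Mfap4, a microfibril protein gene, at 88.3 and 50.2, and Col6a1 at 32.1 and 20.3. The main dermal collagens Col1a1 (453 and 343 FPKM) and Col3a1 (544 and 452) differed less. The list summed to 3888 FPKM in wild type, the highest of the 9 groups, and to 3180 in the knockout, and wild type at 0 h was highest for 14 members. In the irradiated pairs the median was 0.02 at 6 h and 0.18 at 24 h. All 7 mast cell genes were below the all-gene median as well (list median -0.49, against -0.19 and -0.17 in the irradiated pairs), among them Tpsb2, a tryptase, at 15.1 and 9.05 FPKM. Mcpt4, a chymase, stood at 31.4 and 19.9.

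Transcription factors of the hair matrix, where follicle cells divide, were all below the all-gene median before irradiation. None of the 11 passed 2-fold, and the list median was -0.34. Trps1 stood at 7.98 FPKM in wild type and 4.72 in the knockout, Sp6 at 88.4 and 58.3, and Cux1 at 65.7 and 48.2. Msx1 stood at 12.6 and 9.26. The medians of the irradiated pairs were 0.20 and 0.02. Of 14 Notch pathway genes 13 were below the all-gene median (list median -0.30), and of 8 Hedgehog genes 7 were (list median -0.27), with irradiated medians between -0.15 and 0.25 for both lists. None of either list passed 2-fold. Of 26 Wnt genes none passed, with a median of -0.19, and of 15 desmosome genes none passed, with a median of -0.24. Only 1.76% of all genes passed 2-fold, so the lack of calls does not set these lists apart.

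Interferon-induced genes also lay mostly on the lower side. Of 35 compared, 28 were below the all-gene median, and the list median was -0.40. At least 2-fold lower was 1, against 0.75% of all genes. It was Ifit1, an antiviral RNA-binding protein gene at 5.80 FPKM in wild type and 1.58 in the knockout. Rsad2, which encodes the antiviral enzyme viperin, stood at 2.74 and 0.99, and Ifi44 at 1.46 and 0.49. In the irradiated pairs the medians were 0.14 and 0.00. Ifi27l2a, the most abundant member, was on the other side (171 FPKM in wild type and 249 in the knockout, log2 ratio 0.54). Because of it, the summed level of the list was 449 FPKM in wild type and 484 in the knockout, the opposite of its median.

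Early response genes lay mostly on the lower side at 0 and 24 h. Fosb stood at 9.90 FPKM in wild type and 0.51 in the knockout (log2 ratio -2.86), and Fos at 34.8 and 14.7 (-1.19). Both encode subunits of the AP-1 transcription factor. Their ratios were 0.83 and 0.43 at 6 h and -3.42 and -2.01 at 24 h, so the sign differed between pairs. Of the 21 genes of the list compared, these 2 were at least 2-fold lower, against 0.75% of all genes. Below the all-gene median were 16, and the list median was -0.29. The list median was 0.17 at 6 h and -0.33 at 24 h, when all 21 were below 0. Atf3, a stress-induced factor, stood at 4.59 and 2.64 FPKM, with -0.77 and -2.27 in the irradiated pairs.

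The genes that earlier work linked to keratin 17 did not pass 2-fold. Of the 13 in this list 8 were compared, with a median of -0.30. Only 1.76% of all genes passed 2-fold, so the lack of a call among 8 genes does not set them apart. Gli1 and Gli2, the Hedgehog transcription factors, stood at 15.8 and 3.64 FPKM in wild type, against 12.7 and 2.72 in the knockout. Sfn, the epithelial 14-3-3 sigma protein that binds keratin 17, stood at 974 and 1004 FPKM, and Hnrnpk, an RNA-binding protein gene, at 319 and 366. Cxcl10, an interferon-induced chemokine, stood at 2.94 and 2.07. Tnf stood at 1.45 and 1.47 FPKM. Of 21 chemokine genes none passed 2-fold (median -0.33, and -0.60 at 24 h), and of 14 genes of the TNF and NF-kB feedback none passed (median -0.22).

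Epidermal barrier and defence genes were mixed. Of 33 cornified envelope genes, 3 were at least 2-fold lower and none higher, against 0.75% and 1.01% of all genes. The 3 were Lce3a (2.55 FPKM in wild type and 0.27 in the knockout), Rptn (10.2 and 4.09) and Lce3c (10.9 and 4.56). Rptn encodes repetin. The abundant members differed little, with Lor, the main envelope protein loricrin, at 1487 and 1624 FPKM, and the median was -0.07, a sign that turns when the columns are rescaled. Defb8, a beta-defensin, stood at 620 FPKM in wild type and 235 in the knockout (log2 ratios -1.39, -1.37 and -0.43), and wild type at 0 h was the highest of the 6 wild-type and knockout groups. Saa3, an acute-phase protein gene, stood at 8.79 and 24.5 FPKM but was lower in the knockout at 24 h, at 36.9 against 295. Of 16 sebaceous gland genes 2 were at least 2-fold higher, against 1.01% of all genes. They were Awat1 and the fatty acid desaturase Scd3 (23.1 and 49.4 FPKM). Their list had a median of 0.26, against -0.19 and 0.14 in the irradiated pairs.

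Of all genes compared 1.76% passed 2-fold, and other lists held none that did. They include 30 mitosis genes (median -0.05), 24 DNA replication genes (0.06), 30 p53 targets (-0.13), 19 adipocyte genes (-0.07), 15 macrophage genes (-0.02), 16 endothelial genes (-0.03) and 14 pigment genes (0.19). The signs of all of these except the p53 targets and pigment genes turn under at least 1 of the rescalings.

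**Figure D4:**
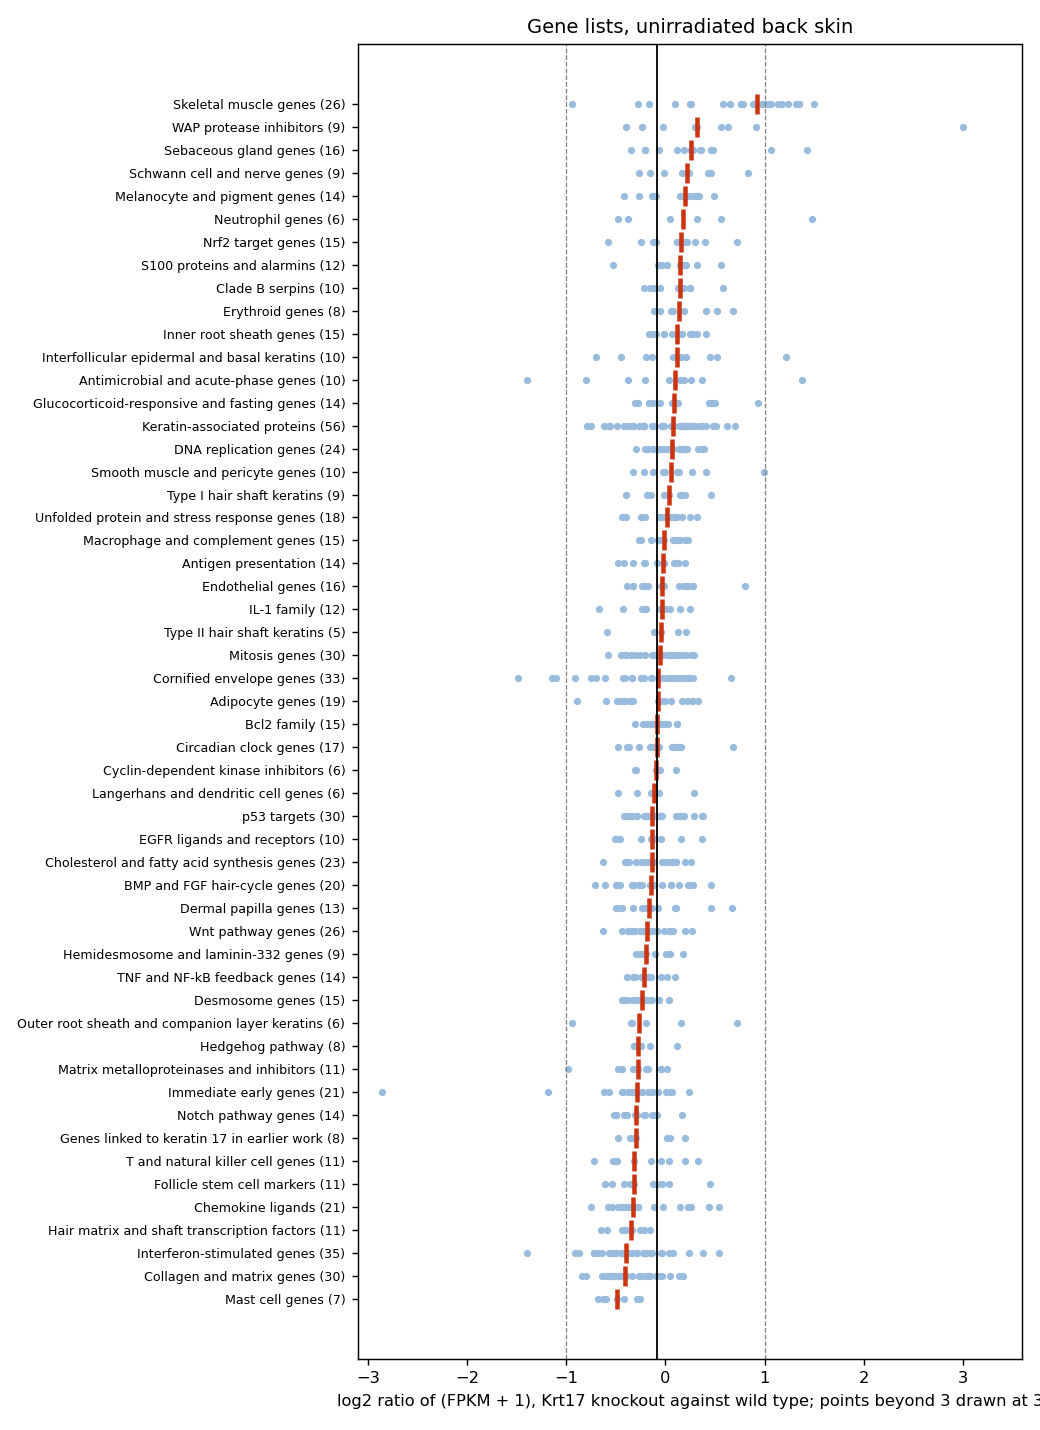
Log2 ratio of (FPKM + 1), Krt17 knockout against wild type in unirradiated back skin, for each member (points) of the gene lists with at least 5 genes compared (number in brackets), with the list's median (upright bar), the median of all genes (solid line, -0.08) and the 2-fold thresholds (dashed lines). Skeletal muscle genes stand highest with a median of 0.93, and mast cell, collagen and interferon genes stand lowest with medians of -0.49, -0.40 and -0.40.

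**Figure D5:**
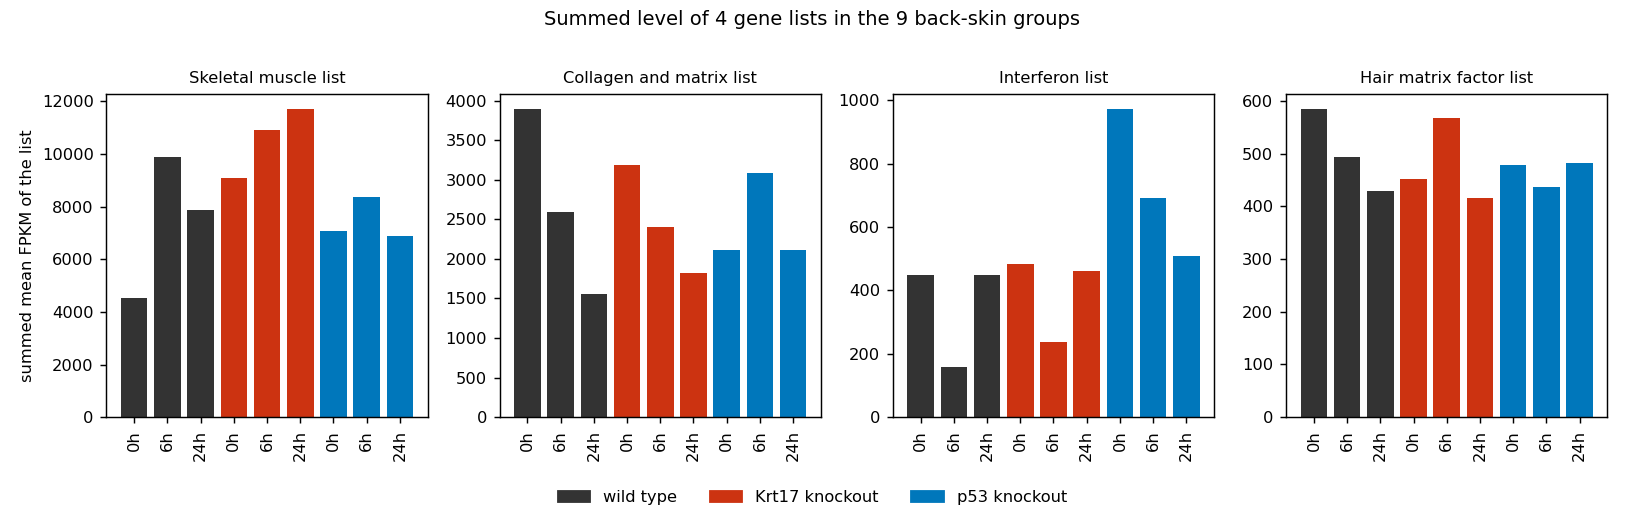
Summed mean FPKM of the members of 4 gene lists in each of the 9 back-skin groups, coloured by genotype and labelled by time, with axes from 0. Unirradiated wild type is the lowest group for skeletal muscle (4542 FPKM) and the highest for collagen and matrix genes (3888 FPKM), while the unirradiated knockout lies between the extremes for both.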

How the data were processed

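The deposited values were FPKM made by the authors, 1 mean column per group of 2 samples, in 1 table per tissue. Per the submitters' processing notes, TopHat2 2.1.0 and Cufflinks 2.2.1 were used with mm10. The annotation release, the strand setting and the way of averaging are not given in the sources used here. Read numbers are unknown, so no interval or detection limit is given.

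A planned limma fit on single samples could not be made from means, and the fallback rule of size was used: the log2 ratio of (FPKM + 1) for genes at 1 FPKM or more in either column, counted at 2-fold. This scale understates changes of low genes. A value of 0 was treated as missing where the median of the other 7 back-skin columns was at least 5 FPKM (5 genes). Symbols on several lines (116) were kept in gene counts and left out of lists.

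Named genes were keratins past 2-fold or at 100 FPKM or more, the 15 largest increases and 15 largest decreases at 5 FPKM or more, the 4 largest members of each of 56 lists, fixed cell type markers, and the 10 highest and 10 lowest genes by their smallest ratio of 1 sign over the 3 back-skin pairs; those printed from this set were picked after their values were seen. Members and lists were chosen with earlier results of these data known. Positions were read from GENCODE M21, on GRCm38, which is the assembly mm10, for 13831 of the 13867 genes compared. Promoters are from RefSeq. The counting code was run on a wild-type column with known changes and no added noise. That run checks the arithmetic only, not how often noise alone passes 2-fold. Computation used Python 3.11.15, numpy 2.4.6, pandas 2.3.3 and matplotlib 3.10.9.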

Additional observations from a re-analysis of the deposited data

Results flagged for a closer look

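Sln, the sarcolipin gene, was lower in the knockout in back skin, with small ratios of the other sign in the footpad. Its log2 ratio between Krt17 knockout and wild type was -1.83 in unirradiated back skin, and it was below 0 in all 3 back-skin pairs. In the 4 footpad pairs it lay between 0.15 and 0.36, at levels of 2.88 to 12.6 FPKM. Of all genes compared, 6.93% had a sign in all 4 footpad pairs opposite to that in unirradiated back skin. The difference between tissues was not tested.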

How the results depend on the processing

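With a pseudocount of 0.1 FPKM, 255 genes were higher and 242 lower, in place of 140 and 104. With a filter of 5 FPKM, 53 genes were lower, and 13 in place of 21 passed 2-fold the same way in all 3 back-skin pairs. Rescaling the columns by their median ratio gave 171 higher and 86 lower genes, and rescaling to the same total without hair genes gave 130 and 116. Omitting the filter, keeping listed zeros or leaving out genes far off in 1 column gave 138 to 143 higher and 99 to 105 lower. The named genes kept their sign under each of these alternatives where they were called. Of 263 named genes, 16 moved by over 1.5-fold with the smaller pseudocount, and under the other alternatives none of those with a value did (205 have one with the 5 FPKM filter, 262 without genes far off in 1 column). No paired analysis was possible because the tables hold 1 mean column per group, and leaving out single samples was not possible for the same reason. No spread between samples is known, so a size past 2-fold is not shown to exceed it.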
